A study of Mus musculus with 6 samples.

Results

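The 10 circadian clock genes described here are Per1, Per2, Per3, Nr1d1, Nr1d2, Dbp, Arntl (also called Bmal1), Npas2, Clock and Nfil3. They were chosen by gene symbol, because their levels order the libraries and cell types of this series, from 56884 genes in the count matrices, and all 10 were found. Their levels and the differences between libraries are therefore a description and were not tested. The series holds 6 single-cell RNA libraries, each from 2 pooled mice of 1 genotype, so every condition is 1 library and no spread between animals can be given. At postnatal day 21, lung libraries were made from iPCKO mice for Bdnf and for Hgf and from lox/lox controls for each gene. At postnatal day 12, cerebral cortex libraries were made from Nodal iPCKO mice and their lox/lox controls. iPCKO mice carry the floxed gene and the Pdgfrb(BAC)-CreERT2 transgene, in which Pdgfrb regulatory DNA drives a tamoxifen-activated Cre recombinase in mural cells. These are pericytes and vascular smooth muscle cells, and the study reports limited recombination in cells with low PDGFRβ, such as fibroblasts. The study names the controls lox/lox, which is read here as floxed alleles without the transgene. Its methods give 50 µg tamoxifen on postnatal days 1 to 3 to induce Cre, and do not say separately whether controls were injected. Animals were used without regard to sex. Lung cells were depleted of CD45+ and Ter119+ blood cells with beads. The study describes the controls as littermates of the iPCKO mice, without giving the litter of each pooled mouse. Time of day at tissue collection is not given in the sources used here, so it cannot be told apart from genotype or litter in any comparison below.

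The mammalian clock is a feedback loop that runs in nearly every cell. ARNTL pairs with CLOCK or NPAS2 and switches on the Per and Nr1d genes and Dbp. PER proteins then inhibit the pair, and NR1D1 and NR1D2 repress Arntl, Npas2, Clock and Nfil3. In tissues outside the brain, Nr1d1, Dbp and the Per genes therefore peak in a different part of the day from Arntl and Npas2. DBP and NFIL3 act on the same DNA element in opposite directions, DBP as an activator and NFIL3 as a repressor.

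The letters of these elements were searched in the 250 bases before the start of each member's canonical transcript on GRCm39. The searched letters, on both strands, were the E-box CACGTG, the D-box TTATGTAA or TTACGTAA, the RORE core TAGGTCA and the cAMP element TGACGTCA. Matches were present in 4 members, which are shown because they hold a searched element, with the match in capitals. The E-box of Per1 lies 22 to 17 bases before the start, the D-box of Per2 125 to 118, those of Per3 187 to 180 and 140 to 133, and the RORE core of Dbp 189 to 183.
Per1 (chr11:68989018-68989267, plus strand): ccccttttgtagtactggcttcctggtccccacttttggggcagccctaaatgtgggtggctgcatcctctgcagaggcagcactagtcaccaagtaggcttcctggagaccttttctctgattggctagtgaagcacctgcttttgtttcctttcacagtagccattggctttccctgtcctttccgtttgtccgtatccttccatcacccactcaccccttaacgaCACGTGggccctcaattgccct
Per2 (chr1:91387047-91387296, minus strand): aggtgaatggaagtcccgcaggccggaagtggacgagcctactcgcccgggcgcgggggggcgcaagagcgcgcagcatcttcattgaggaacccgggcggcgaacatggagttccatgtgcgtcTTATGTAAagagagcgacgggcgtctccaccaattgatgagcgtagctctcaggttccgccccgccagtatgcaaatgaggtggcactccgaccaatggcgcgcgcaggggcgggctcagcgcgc
Per3 (chr4:151129141-151129390, minus strand): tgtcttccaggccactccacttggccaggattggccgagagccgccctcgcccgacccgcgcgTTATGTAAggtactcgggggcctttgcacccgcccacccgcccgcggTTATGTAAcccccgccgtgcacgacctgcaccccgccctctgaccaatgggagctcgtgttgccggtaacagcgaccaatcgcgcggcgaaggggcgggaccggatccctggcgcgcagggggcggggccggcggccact
Dbp (chr7:45354262-45354511, plus strand): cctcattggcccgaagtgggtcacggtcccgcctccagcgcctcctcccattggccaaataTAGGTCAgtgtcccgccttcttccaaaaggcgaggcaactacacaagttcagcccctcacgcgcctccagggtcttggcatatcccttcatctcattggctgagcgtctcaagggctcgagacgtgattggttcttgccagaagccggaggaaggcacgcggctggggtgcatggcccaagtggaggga
Per3 holds the D-box letters at 2 places and Per2 at 1. Among 21770 promoters of protein-coding genes of this length, 0.937% hold the D-box letters, 6.26% the E-box, 2.17% the RORE core and 1.69% the cAMP element. The windows of the other 6 members held none of these letters, which says nothing of elements elsewhere in those genes.

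Cells were barcodes with at least 1500 UMIs, or 700 UMIs in the Hgf libraries, where a UMI marks 1 captured RNA molecule. That left 3237 to 24311 barcodes a library at a median of 2841 to 7791.5 UMIs, and the Hgf iPCKO library was the shallowest. Cells were assigned to types from marker genes, and 9 lung types and 6 cortex types held at least 50 barcodes in every library of the tissue. Averaged over the 12 endothelial markers, a marker was positive in 81.7% to 90.9% of the endothelial-like cells of a library. The same markers assigned the cells, so these shares are no separate check of identity. In cells assigned to other types the endothelial markers were positive in 1.44% to 5.04%. The alveolar type 1 (AT1) markers were positive in 13.7% to 18.2% of the lung cells of other types. The matrix fibroblast-like cells met their markers least among the 9 lung types, with 71.6% in the Bdnf control, 65.4% in the Bdnf iPCKO, 57.6% in the Hgf control and 44.6% in the Hgf iPCKO lung over 9 markers. Of the targeted genes, Nodal had 180 UMIs in the pericyte-like cells of the Nodal control cortex (135 CPM, UMIs per 1000000 UMIs) and 0 in the Nodal iPCKO cortex, with an upper 95% Poisson limit of 1.82 CPM. Hgf measured 172 CPM in the pericyte-like cells of the Hgf control and 28.8 CPM in the Hgf iPCKO lung (exact 95% intervals 109 to 258 and 12.4 to 56.7). Bdnf had 5 UMIs in 80 pericyte-like cells of the Bdnf control and 0 in 90 of the Bdnf iPCKO lung, which is too few to check that label. Whether the counted part of each transcript lies in the deleted exons was not checked.

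Endothelial-like cells, with 4246 to 5833 barcodes a lung library, are described first. The Hgf iPCKO lung held the highest Nr1d1, Nr1d2, Dbp, Per1, Per2 and Per3 and the lowest Arntl, Npas2 and Nfil3 of the 4 lung libraries. Both control lungs lay at the other end for most of these genes, and the Bdnf iPCKO lung lay between for Nr1d1, Nr1d2, Dbp, Per2, Per3, Arntl and Npas2. All levels are in CPM over the summed cells, and all intervals cover counting error alone, not differences between mice.

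Nr1d1 encodes REV-ERBα, the nuclear receptor that represses Arntl. It measured 19.6 CPM in the Bdnf control, 36.5 in the Bdnf iPCKO, 10.7 in the Hgf control and 229 in the Hgf iPCKO lung. The Hgf iPCKO value stood 21.3-fold above its control (log2 ratio 4.41, exact 95% interval 4.17 to 4.68). In the Bdnf pair the log2 ratio was 0.89 (0.72 to 1.07).

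Nr1d2, which encodes the related receptor REV-ERBβ, measured 30.9, 69.1, 19.1 and 104 CPM in the same order of libraries. Both iPCKO lungs were above both controls. The log2 ratios were 2.44 (2.24 to 2.64) in the Hgf pair and 1.16 (1.03 to 1.30) in the Bdnf pair.

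Dbp, a PAR bZIP activator of clock output genes, measured 3.52 CPM in the Bdnf control, 6.75 in the Bdnf iPCKO, 4.35 in the Hgf control and 65.4 in the Hgf iPCKO lung. Only the Hgf iPCKO library stood far from the rest. Its log2 ratio to the Hgf control was 3.90 (3.51 to 4.33), with 922 against 54 UMIs.

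The Per genes, which encode the inhibitors of the ARNTL complex, did not share 1 order. Per1, which also responds within minutes to signals such as cAMP and glucocorticoids, measured 25.3, 36.9, 84.5 and 197 CPM, so both Hgf libraries exceeded both Bdnf libraries. Per2 measured 19.7, 46.4, 5.81 and 60.2 CPM, with the Hgf control lowest. Per3 measured 7.18, 20.2, 4.44 and 27.2 CPM, in the same order of libraries as Per2. In the Hgf pair the log2 ratios were 1.22 (1.12 to 1.32) for Per1, 3.36 (3.03 to 3.74) for Per2 and 2.61 (2.21 to 3.05) for Per3. Up to 21.2% of the Per3 UMIs of a library stood in fractional entries, where reads matched several places and were shared out, while Nr1d1, Dbp, Per1 and Nfil3 had none.

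Arntl, the partner that both CLOCK and NPAS2 need, moved the other way. It measured 32.0 CPM in the Bdnf control, 21.8 in the Bdnf iPCKO, 31.2 in the Hgf control and 9.50 in the Hgf iPCKO lung. The log2 ratio was -1.71 (-2.01 to -1.43) in the Hgf pair and -0.55 (-0.72 to -0.38) in the Bdnf pair.

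Npas2, the stand-in for CLOCK, measured 10.8, 4.69, 8.47 and 1.10 CPM. Both iPCKO lungs were below both controls. The log2 ratio was -2.91 (-3.76 to -2.13) in the Hgf pair, on 15.5 against 105 UMIs, and -1.20 (-1.56 to -0.87) in the Bdnf pair.

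Clock and Nfil3 did not follow Arntl in both pairs. Clock, the histone acetyltransferase partner of ARNTL, measured 85.4, 116, 67.1 and 88.3 CPM and was higher in each iPCKO lung than in its control, by log2 0.44 (0.35 to 0.53) and 0.40 (0.27 to 0.53). Nfil3, the repressor that opposes DBP, measured 9.23, 13.9, 9.11 and 4.75 CPM. Its log2 ratio was 0.59 (0.32 to 0.85) in the Bdnf pair and -0.94 (-1.40 to -0.49) in the Hgf pair.

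**Figure D1:**
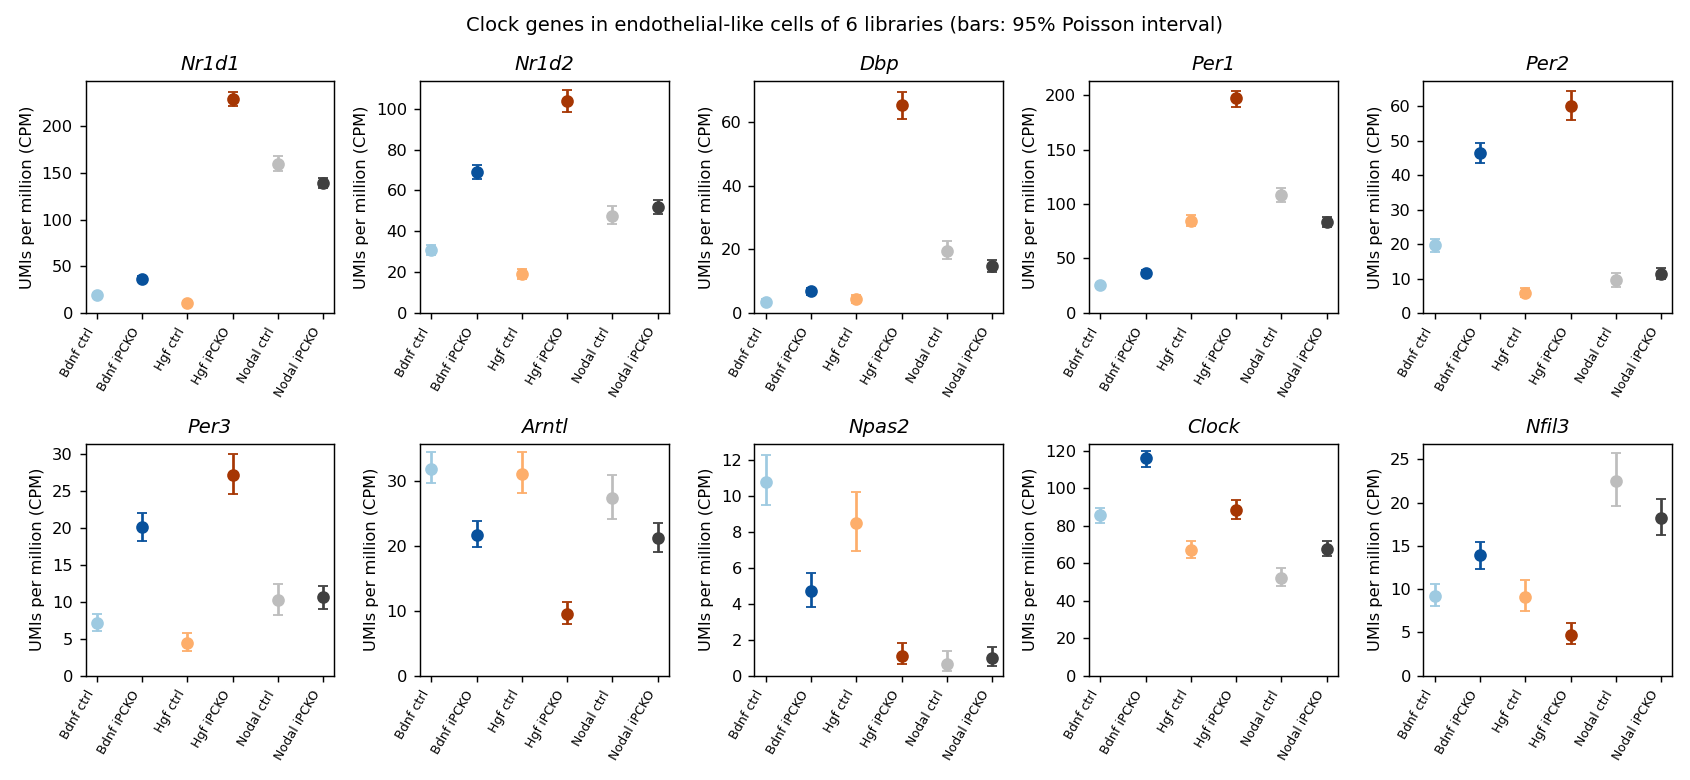
Level of each clock gene in endothelial-like cells, in CPM, for the 6 libraries on the horizontal axis, with exact 95% Poisson intervals. The Hgf iPCKO lung is highest for Nr1d1 (229), Dbp (65.4) and Per1 (197) and, among the lungs, lowest for Arntl (9.50) and Npas2 (1.10).

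A limit of 2-fold was used to count differences, for genes whose UMIs in the pair summed to 50 or more. In the Hgf pair, 8 of 10 members passed it in endothelial-like cells, 6 higher and 2 lower, where 4.69% of 13943 genes were at least 2-fold higher and 6.46% lower in the Hgf iPCKO lung. In the Bdnf pair 3 members were higher (Nr1d2, Per2 and Per3) and 1 lower (Npas2), against 1.36% and 1.40% of 15686 genes. Dbp and Nr1d1 lay just under the limit there, at 1.91-fold and 1.86-fold, and Nr1d2 just above it at 2.24-fold. Between the control lungs Per1 was higher and Per2 lower in the Hgf control, against 4.26% and 5.37% of 14815 genes. In the cortex pair 0 of the 9 members at the UMI minimum passed, against 0.606% and 0.791% of 13027 genes. Since the members were picked for these differences, nothing is read from how these counts compare with the shares of all genes. The median log2 ratio over the 6 genes of the Per, Nr1d and Dbp group was 2.99 in the Hgf pair and 1.05 in the Bdnf pair. It was -0.69 between the control lungs and -0.07 in the cortex pair. Over the other 4 members it was -1.32 in the Hgf pair, -0.06 in the Bdnf pair and -0.19 between the control lungs. In the cortex pair it was -0.30 over the 3 of them at the UMI minimum. All genes had a median of -0.07 in the Hgf pair, and for the same reason nothing is read from the contrast.

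**Figure D2:**
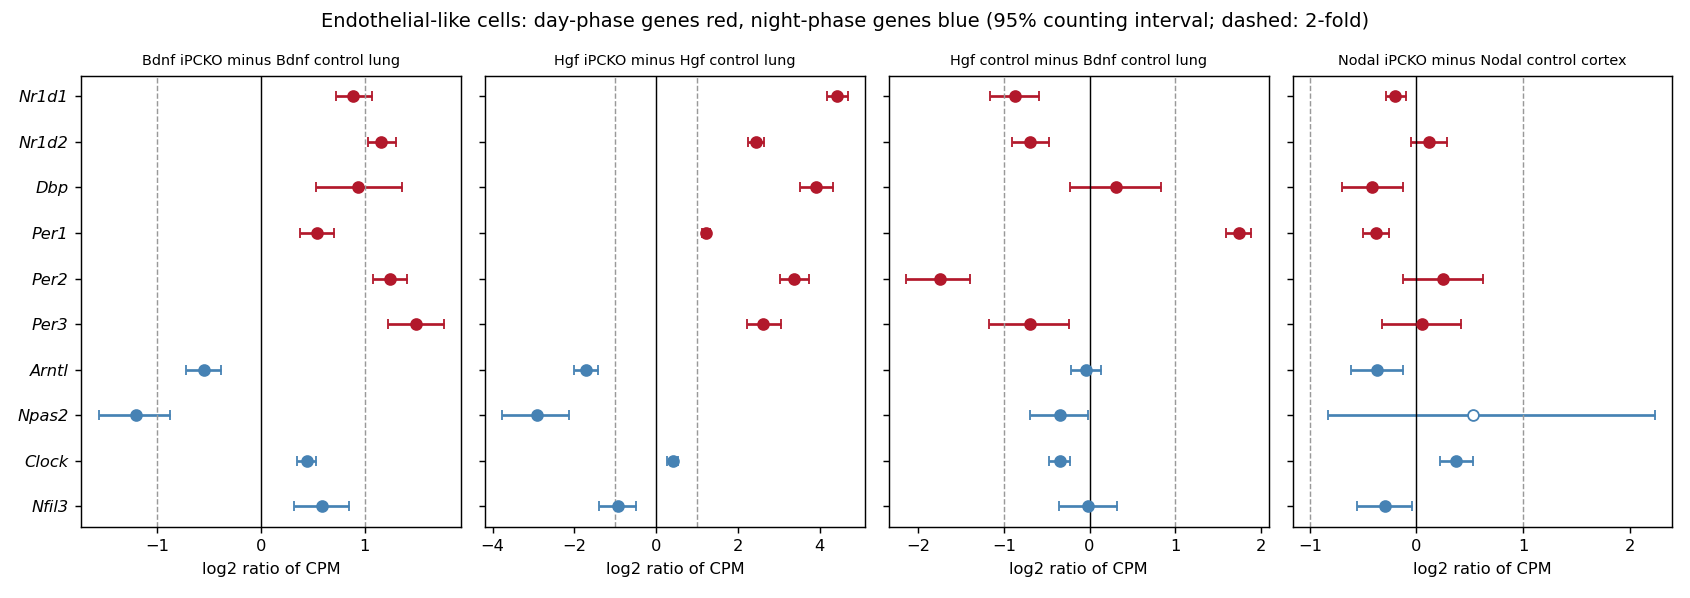
Log2 ratio of each clock gene in endothelial-like cells in the 4 comparisons, with exact 95% counting intervals, the Per, Nr1d and Dbp genes in red, the others in blue and dashed lines at 2-fold. The open point is Npas2 in cortex, with 22 UMIs in both libraries together, and the horizontal scales differ between panels. In the Hgf pair the red genes run from 1.22 to 4.41 and Arntl and Npas2 lie at -1.71 and -2.91.

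AT2-like cells, the surfactant-producing epithelium, gave the same direction for most members with larger differences for Dbp. Dbp measured 7.56 CPM in the Bdnf control, 15.0 in the Bdnf iPCKO, 3.15 in the Hgf control and 133 in the Hgf iPCKO lung. The Hgf pair differed by 42.0-fold (log2 ratio 5.39, interval 5.07 to 5.75). Npas2 measured 42.4, 17.5, 39.4 and 4.12 CPM in the same order. Nfil3 was 21.9 CPM in the Hgf control and 3.44 in the Hgf iPCKO lung (log2 ratio -2.66, -3.14 to -2.23), while in the Bdnf pair its log2 ratio was 0.02 (-0.14 to 0.19). Nr1d1 in the Bdnf pair measured 41.7 and 44.3 CPM in these cells (log2 ratio 0.09, -0.01 to 0.18), and Clock 49.3 and 49.4 CPM in the Hgf pair.

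In AT2-like cells 6 members were at least 2-fold higher and 3 lower in the Hgf pair, where 4.75% and 6.55% of all genes were. In the Bdnf pair Per3 was higher and Npas2 lower, against 2.35% and 0.838% of genes, with Nr1d2, Per2 and Dbp at 2.00-fold, 2.00-fold and 1.99-fold, just under the limit before rounding. Between the control lungs Per1 was higher and Dbp, Per2 and Per3 lower in the Hgf control, against 4.23% and 6.44% of genes.

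To place all 10 genes on 1 scale, a clock index was taken as the mean log2 level of Nr1d1, Nr1d2, Dbp, Per1, Per2 and Per3 minus that of Arntl, Npas2, Clock and Nfil3, which does not depend on how libraries are scaled. In endothelial-like cells it was -0.70 in the Bdnf control (95% counting interval -0.81 to -0.60), 0.52 in the Bdnf iPCKO (0.42 to 0.62), -0.84 in the Hgf control (upper bound -0.68) and 3.44 in the Hgf iPCKO lung (3.23 to 3.65). The Hgf pair differed by 4.28 (4.02 to 4.54), the Bdnf pair by 1.23 (1.08 to 1.37) and the control lungs by -0.14 (-0.33 to 0.05). The control difference depended on Per1: in an index without Per1, chosen after seeing the data, it was -0.55 (-0.76 to -0.34). With Leiden clusters in place of marker-assigned cells it was -0.20 (-0.37 to -0.02). The index was highest in the Hgf iPCKO lung in 9 of 9 cell types, all as assigned from markers. Between the control lungs the difference varied in sign among cell types. It was -0.71 (-0.81 to -0.60) in AT2-like, 0.65 (0.32 to 0.98) in club-like and 0.87 (0.30 to 1.44) in ciliated-like cells, and its interval included 0 in the other 6 types, endothelial-like cells among them.

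The size of the difference varied among cell types. In the Hgf pair the index difference ran from 2.04 (1.44 to 2.64) in ciliated-like cells to 4.93 (4.75 to 5.12) in AT2-like cells, and was 4.62 (4.03 to 5.22) in AT1-like and 3.37 (2.88 to 3.87) in club-like cells. In the Bdnf pair it ran from 0.73 (0.35 to 1.12) in ciliated-like to 2.47 (1.97 to 2.97) in matrix fibroblast-like cells. The ciliated-like value of the Hgf pair overlapped in its interval with those of the fibroblast-like types. Ciliated-like, adventitial fibroblast-like and pericyte-like cells formed no Leiden cluster of their own in any lung library, and matrix fibroblast-like cells formed none in the Hgf iPCKO lung. The stricter gate kept at most 1 ciliated-like and 4 adventitial fibroblast-like barcodes a library, 26 to 78 pericyte-like ones and 3 of the 71 matrix fibroblast-like ones in the Hgf iPCKO lung. Alternative assignments were compared for the endothelial-like, AT2-like and AT1-like lung cells, so the values of all other lung types, and their places in counts over the 9 types, rest on the marker assignment. Pericyte-like cells, with 75 to 181 barcodes a lung library, gave 4.36 with an interval from 2.47 to 6.25 in the Hgf pair.

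**Figure D3:**
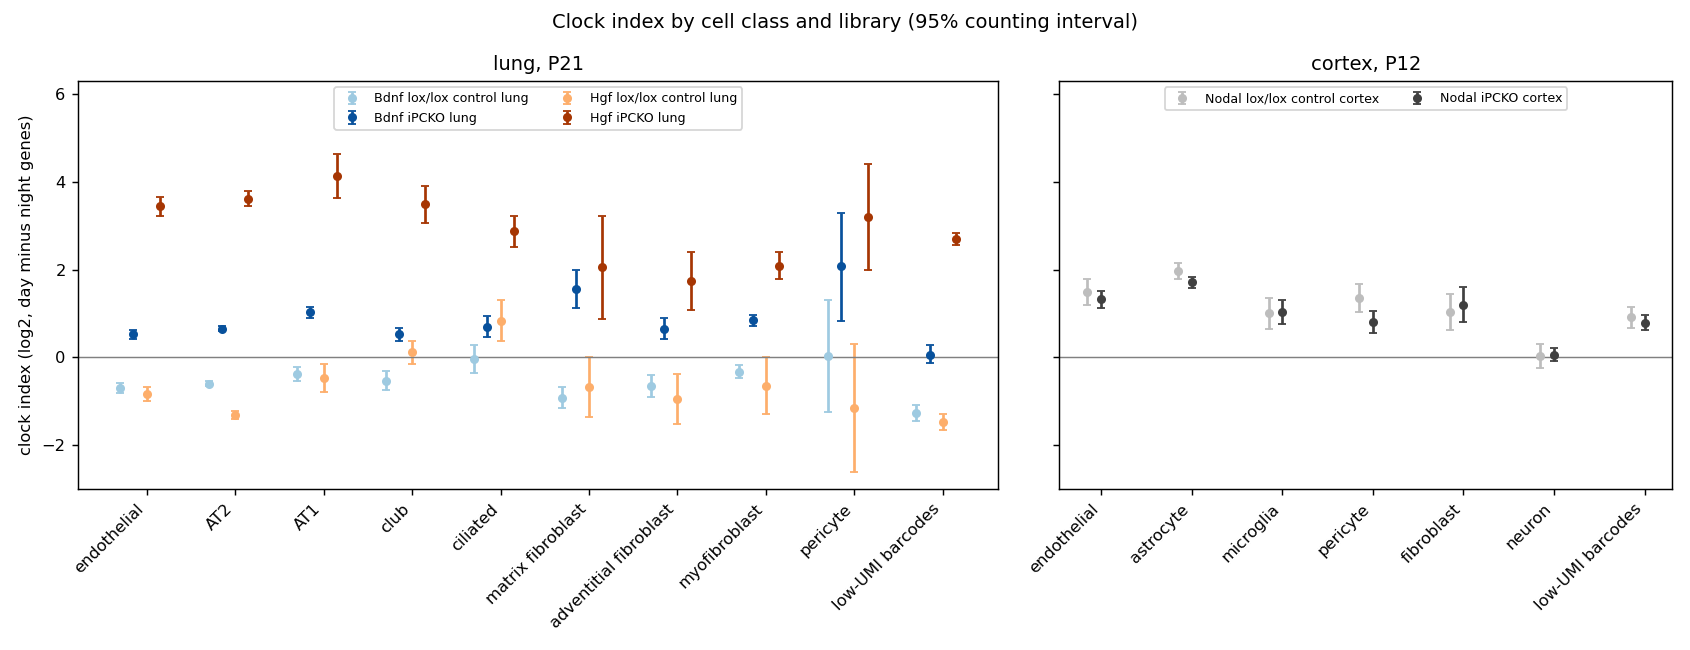
Clock index (log2) by cell type for the 4 lung libraries on the left and the 2 cortex libraries on the right, with 95% counting intervals, and for barcodes of 10 to 100 UMIs at the right end of each panel. The Hgf iPCKO lung lies between 1.74 and 4.14 over the 9 lung types, and the cortex libraries lie between 0.02 and 1.96.

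In each lung library, a mesenchymal type held the highest Nr1d1 level. In myofibroblast-like cells Nr1d1 measured 184 CPM in the Bdnf control, 198 in the Bdnf iPCKO, 272 in the Hgf control and 745 in the Hgf iPCKO lung, so its lowest value there exceeded every control value in endothelial-like cells. Matrix fibroblast-like cells held 76.6, 239, 270 and 775 CPM of Nr1d1, and here the control lungs differed by 3.53-fold (log2 ratio 1.82, 1.44 to 2.20), with the Hgf control higher, against -0.87 in endothelial-like cells. These matrix fibroblast-like cells numbered 400, 216, 183 and 71, at median depths of 3676, 2860.5, 1759 and 1341 UMIs, and the share of them positive for a marker of the type fell in the same order of libraries. The part of that difference in the Nr1d1 values was not tested. In club-like cells the Hgf pair differed less in Nr1d1, at 65.4 and 148 CPM (log2 ratio 1.18, 0.88 to 1.49). Dbp in AT1-like cells, the flat gas-exchange epithelium, measured 2.45, 7.07, 1.33 and 85.1 CPM, with 5 UMIs in the Hgf control and 236 in the Hgf iPCKO lung. Arntl in club-like cells had 4.5 UMIs in the Hgf iPCKO lung, at 2.06 CPM against 24.5 in its control (log2 ratio -3.43, -5.67 to -2.29). Nfil3 in myofibroblast-like cells measured 100, 112, 110 and 54.0 CPM.

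The order of libraries by level held across types for some members. Nr1d1, Dbp and Per1 were highest in the Hgf iPCKO lung in 9 of 9 types, Per1 lowest in the Bdnf control in 9 of 9, and Per2 lowest in the Hgf control in 9 of 9. Per3 was lowest in the Hgf control in 8 types, and in pericyte-like cells both control lungs held 0 Per3 UMIs. The Hgf iPCKO lung held the lowest Arntl in 7 types and the lowest Npas2 in 8. Per2 and Per3 were highest in the Hgf iPCKO lung in 5 types and in the Bdnf iPCKO lung in 4. In adventitial fibroblast-like cells Per2 was also higher in the Bdnf control than in the Hgf iPCKO lung, at 40.3 and 38.8 CPM. In AT1-like cells, for example, Per2 measured 134 CPM in the Bdnf iPCKO and 68.9 in the Hgf iPCKO lung, while Dbp measured 7.07 and 85.1 CPM. Several of these positions rest on few UMIs, and neighbours in the order can lie within counting error.

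The range of the log2 ratio over cell types is given for single members. Over the lung types that reached the UMI minimum in the Hgf pair, the log2 ratio of Nr1d1 ran from 1.18 to 4.41 over 9 types, that of Dbp from 3.36 to 5.87 over 6 and that of Per1 from 0.96 to 2.05 over 9. The ratio of Arntl ran from -3.43 to -1.71 over 4 types, and that of Clock from -0.58 to 0.40 over 7. In the Bdnf pair Nr1d2 ran from 0.76 to 1.72 over 9 types and Arntl from -1.02 to -0.55 over 8, whereas Nr1d1 ran from -0.29 to 1.64 and crossed 0. A gene that is low in both libraries is left out of these ranges, and a type can reach the minimum through the higher library alone. The ranges cover different types for each member, so they do not compare how evenly members moved. The highest ratio of Dbp, in AT1-like cells, and the lowest of Arntl, in club-like cells, rest on few UMIs in the lower library.

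The control lungs are the comparison without a deleted gene, if the lox/lox mice lacked the transgene. Their Arntl levels in endothelial-like cells were alike, 31.2 CPM in the Hgf control and 32.0 in the Bdnf control (log2 ratio -0.04, -0.22 to 0.14). The intervals of Nfil3 and Dbp also included 0. Per1 was 3.34-fold higher in the Hgf control (log2 ratio 1.74, 1.59 to 1.89), and Per2 was 3.37-fold lower (-1.75, -2.14 to -1.40). Over the lung types at the minimum, Per1 ran from 0.62 to 1.81 over 7 types and Per2 from -1.75 to -0.17 over 8. Between these controls the Per genes therefore differed in opposite directions, in a pair of lox/lox libraries that does not share the floxed gene. Both control libraries also enter the comparisons with their iPCKO lungs.

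In the cortex, members differed little between the Nodal libraries. In astrocyte-like cells Nr1d1 measured 644 CPM in the Nodal control and 767 in the Nodal iPCKO (log2 ratio 0.25, 0.20 to 0.30), and Dbp 127 and 118 CPM (-0.10, -0.23 to 0.03). Microglia-like cells of the same libraries held 9.86 and 8.71 CPM of Nr1d1, so the level differed far more between cell types than between genotypes. In endothelial-like cells Nr1d1 measured 160 and 139 CPM, Per1 108 and 83.4, and Arntl 27.5 and 21.3 CPM. No member reached 2-fold in astrocyte-like cells, where 0.943% of genes were higher and 0.729% lower. The index difference was -0.15 (-0.51 to 0.20) in endothelial-like, -0.26 (-0.48 to -0.04) in astrocyte-like and -0.54 (-0.94 to -0.14) in pericyte-like cells. Over the 6 cortex types, the largest difference of a member at the UMI minimum was that of Per1 in microglia-like cells, 170 CPM in the Nodal control and 98.1 in the Nodal iPCKO (log2 ratio -0.79, -0.92 to -0.66). Clock was higher in the Nodal iPCKO in astrocyte-like cells, at 52.9 and 78.9 CPM (0.58, 0.40 to 0.76).

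Some members marked cell types of the cortex. Npas2 measured 55.5 and 77.2 CPM in astrocyte-like cells of the control and iPCKO, 24.9 and 30.4 in neuron-like cells and 0.896 and 0.871 in microglia-like cells. Dbp measured 127 and 118 CPM in astrocyte-like and 8.60 and 6.25 in microglia-like cells. Nfil3 ran the other way, with 2.78 and 4.13 CPM in astrocyte-like and 77.5 and 67.1 in fibroblast-like cells. Clock was the most even member, from 49.4 to 65.7 CPM over the 6 types of the control. The index was lowest in neuron-like cells of both libraries, at 0.02 and 0.06, and highest in astrocyte-like cells, at 1.96 and 1.71.

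The levels of Nr1d1, Dbp and Arntl also showed as shares of cells. After each AT2-like cell was thinned to 1500 UMIs, 6.19% of cells in the Bdnf control, 5.98% in the Bdnf iPCKO, 3.52% in the Hgf control and 29.7% in the Hgf iPCKO lung held a Nr1d1 UMI. Before thinning the shares were 24.0%, 19.8%, 9.88% and 52.9%, at median depths of 8437, 5834.5, 4707.5 and 3572.5 UMIs. Dbp UMIs were held by 1.18%, 2.10%, 0.560% and 18.5% of the thinned AT2-like cells, and Arntl UMIs by 5.03%, 2.39%, 5.26% and 1.17%. The share with Nr1d1 or Dbp was thus highest, and that with Arntl lowest, in the Hgf iPCKO lung. Thinning left out 94 shallower cells in the Hgf control and 101 in the Hgf iPCKO lung. Immune-like cells were few. Before thinning, a Nr1d1 UMI was held by 5.17% of 58 in the Bdnf control and 3.03% of 33 in the Bdnf iPCKO lung. The shares were 0% of 98 in the Hgf control and 7.92% of 101 in the Hgf iPCKO lung, at medians of 4326 and 8594 UMIs. After thinning, the Hgf control held 0% of 95 (exact binomial 95% interval 0% to 3.81%). The Hgf iPCKO lung then held 4.08% of 98 (1.12% to 10.1%).

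Barcodes with 10 to 100 UMIs, too few for a cell, showed the same direction. In them Dbp measured 2.14 CPM in the Hgf control and 69.1 in the Hgf iPCKO lung, and Arntl 108 and 16.8 CPM. Several members stood higher in these barcodes than in the cells. Per3 measured 43.9 and 253 CPM there, above its level in each of the 9 lung types of those libraries, as did Per2 in the Hgf iPCKO lung, at 200 CPM against 38.8 to 112 in the types. Arntl and Npas2 did so in the Hgf control, where Arntl ran from 24.5 to 63.1 CPM over the types, and Npas2 measured 125 CPM against 7.77 to 58.2. In the Bdnf control Arntl and Npas2 measured 103 and 146 CPM in these barcodes, again above all 9 types, but in the Hgf iPCKO lung they measured 16.8 and 13.9 CPM, within the range of the types. The index of these barcodes was -1.48 in the Hgf control, -1.27 in the Bdnf control and 0.06 in the Bdnf iPCKO lung, and it was highest in the Hgf iPCKO lung. The part of such RNA in the cell values was not tested.

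Of 17 other clock genes, listed with earlier results of these data known, 16 reached the UMI minimum in endothelial-like cells of the Hgf pair. Of these, 5 were at least 2-fold higher in the Hgf iPCKO lung and 0 lower, beside 4.69% and 6.46% of all genes. In AT2-like cells 8 of 16 were higher and 1 lower (Noct), beside 4.75% and 6.55%. As with the members, nothing is read from how counts of this list compare with the shares of all genes. Tef and Hlf, the relatives of Dbp, measured 18.1 and 183 CPM and 5.32 and 80.0 CPM (log2 ratios 3.34, 3.14 to 3.55, and 3.90, 3.55 to 4.29). Cry1 and Cry2, whose proteins inhibit the ARNTL complex together with PER, had log2 ratios of 1.86 (1.61 to 2.12) and 2.43 (2.14 to 2.74). Bhlhe41, a repressor that competes for E-boxes, had 54 against 3 UMIs (log2 ratio 3.78, 2.36 to 6.31). With 3 UMIs in the Hgf control, it could reach the UMI minimum only at a higher level in the Hgf iPCKO lung, so it could be counted only as higher. Bhlhe41 was also among the higher genes in AT2-like cells, where the Hgf control alone held fewer UMIs than the minimum. Ciart, an inhibitor of the ARNTL complex, stayed under 2-fold in endothelial-like cells (log2 ratio 0.68, 0.54 to 0.83) and reached 10.5-fold in AT2-like cells (3.39, 3.07 to 3.73).

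In the Bdnf pair 5 of 15 such genes were at least 2-fold higher in endothelial-like cells, Cry2, Tef, Hlf, Usp2 and Wee1, and 0 lower, beside 1.36% and 1.40% of all genes. Tef measured 19.9 and 45.7 CPM (log2 ratio 1.20, 1.03 to 1.37), and Wee1, a kinase that restrains entry into mitosis, 11.5 and 23.0 CPM (interval of the log2 ratio 0.78 to 1.23). Cry1 had a log2 ratio of 0.70 (0.52 to 0.87) in endothelial-like and -0.51 (-0.63 to -0.40) in AT2-like cells of this pair. In the Hgf pair Cry1 was at -0.05 (-0.25 to 0.14) in AT2-like cells. Between the control lungs 1 of 15 was higher (Usp2) and 2 lower (Hlf and Wee1), beside 4.26% and 5.37% of all genes. In the cortex pair 0 of 14 passed the limit, beside 0.606% higher and 0.791% lower of all genes. The median log2 ratio of the list was 0.34 in the Hgf pair, 0.51 in the Bdnf pair, 0.05 between the controls and -0.07 in the cortex pair.

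**Figure D4:**
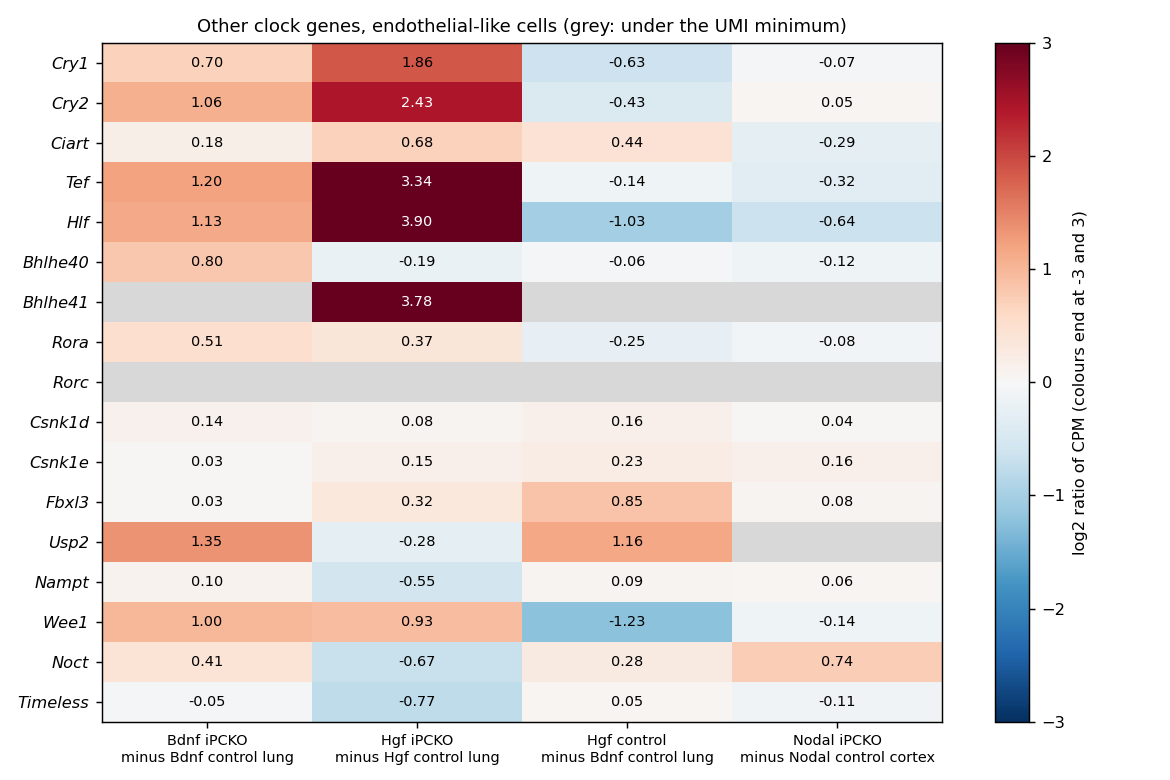
Log2 ratio of CPM of 17 other clock genes in endothelial-like cells in the 4 comparisons, with grey where both libraries together held under 50 UMIs. Tef and Hlf reach 3.34 and 3.90 in the Hgf pair, while in the cortex pair every value shown lies between -0.64 and 0.74.

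Glucocorticoid-responsive and immediate early genes were summed beside the members, since Per1 answers to both kinds of signal. The summed level of 6 glucocorticoid-responsive genes in endothelial-like cells was 1605 CPM in the Bdnf control, 2156 in the Bdnf iPCKO, 1541 in the Hgf control and 2822 in the Hgf iPCKO lung. Fkbp5, a co-chaperone of the glucocorticoid receptor that the receptor induces, measured 49.2, 79.3, 15.8 and 190 CPM in that order. In the Hgf pair its log2 ratio was 3.58 (3.38 to 3.80). Fkbp5 and Tsc22d3 (172, 267, 162 and 356 CPM) had the order of libraries of Nr1d1, Nr1d2, Per2 and Per3. Of the other 4 genes of the list, some had the order of Dbp and some that of no member. Zbtb16, among the latter, measured 304, 296, 107 and 237 CPM, with the Bdnf control highest. Of the 6 genes, 3 were at least 2-fold higher in endothelial-like cells of the Hgf pair, Fkbp5, Tsc22d3 and Zbtb16, and 0 lower, beside 4.69% and 6.46% of all genes. In AT2-like cells 3 were higher, Fkbp5 and Zbtb16 among them, and 0 lower, beside 4.75% and 6.55%. Tsc22d3 was not among these 3 and measured 102, 104, 65.8 and 54.7 CPM there, lowest in the Hgf iPCKO lung. The summed level of 11 immediate early and stress genes was 10422, 14615, 14154 and 15641 CPM in endothelial-like cells. In AT2-like cells it was 2299, 3349, 2959 and 1753 CPM, lowest in the Hgf iPCKO lung, where Per1 was highest. There 6 of the 11 genes were at least 2-fold lower in the Hgf pair and 0 higher, beside 6.55% and 4.75% of all genes. The glucocorticoid-responsive sum in AT2-like cells was 458, 485, 364 and 692 CPM. The part of either signal in the levels of the members was not tested.

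Genes whose levels followed Dbp and Arntl most closely were ranked over 36 sums, 9 lung types in 4 libraries, after the mean of each type was removed. The 36 values come from only 4 libraries, so Pearson's r describes these libraries alone. Among 10451 genes with a mean of at least 10 CPM, and with the members left out of the ranking, the 10 most like Dbp were Dynlt2a2, Rbm3, Rpl9, Rps27, Tef, Mknk2, Lias, Pdgfrb, Snhg3 and Pdk4, with r from 0.90 to 0.87. Tef (r = 0.88) is the only gene among them from the list of other clock genes. Pdgfrb (r = 0.87) is the gene whose regulatory DNA drives CreERT2 in both iPCKO lungs, and its level in pericyte-like cells was 498 and 2055 CPM in the Bdnf pair and 1399 and 4262 CPM in the Hgf pair. In pericyte-like cells of the Nodal cortex pair, Pdgfrb was 871 CPM in the control and 2166 in the iPCKO. The clock index of those cells differed by -0.54 (-0.94 to -0.14). The relation between the Pdgfrb level, the transgene and the clock genes was not tested. The 10 most like Arntl were Arsa, Casd1, Tmem35b, Mob1a, Mrps25, Tgoln1, Med19, Pura, Sh3bgrl and Snx3, with r from 0.86 to 0.80. Among the members themselves, r with Dbp was 0.86 for Nr1d1, 0.80 for Nr1d2, 0.74 for Per1, 0.70 for Per3 and 0.60 for Per2. It was -0.86 for Arntl, -0.84 for Npas2, -0.32 for Nfil3 and 0.01 for Clock.

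Several members share their position with other genes in the annotation. Nr1d1, at chr11:98658752-98666188 on the minus strand, overlaps Thra on the opposite strand, and Dbp, at chr7:45354512-45359627 on the plus strand, overlaps Sphk2 on the opposite strand. Clock, at chr5:76342860-76452846 on the minus strand, overlaps Tmem165, also on the opposite strand, and Per3, at chr4:151081373-151129140 on the minus strand, overlaps Uts2 in the same way. Arntl lies at chr7:112806152-112914735 and Npas2 at chr1:39232705-39402323, both on the plus strand, where the annotation places no protein-coding gene over them. The alignment settings given in the study's methods name no strand option, and by default STARsolo counts only reads on the strand of the gene. Under that default, reads of genes on opposite strands are kept apart. Non-coding genes, pseudogenes or unclassified transcripts also overlap Nr1d1, Per1, Npas2, Clock and Nfil3 on the same strand, where the strand does not separate them.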

How the data were processed

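Lung or cortex cells of 2 mice were pooled in each library. The authors prepared 6 BD Rhapsody whole-transcriptome libraries and, per the labels, aligned them with STAR 2.7.10a to GRCm39. The deposited matrices hold estimated counts (UMIs, with multi-mapped reads shared out) for every barcode, with no cell filter by the authors. UMIs were used as deposited and rounded only for the ratio intervals and for thinning. Library totals were 33889545 to 186701379 UMIs. Barcodes with at least 1500 UMIs (700 in the Hgf libraries) were assigned to the type with the highest share of positive markers, given at least 3 positive markers and a next type at no more than 0.5 of that share. A marker was positive with at least 1 UMI and a share of UMIs at or above that in barcodes of 10 to 100 UMIs. Between 10.6% and 30.2% of barcodes had no type. Doublets were not removed in the main values. Scrublet called 0.700% to 7.27% in an alternative. Pairs of libraries shared 21 to 457 barcode sequences. For the pairs at these ends, the product of their barcode counts over all listed barcodes was 17.8 and 457. The deposited lists of bead barcode parts were not used.

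UMIs were summed per library and type. Levels carry exact Poisson intervals, ratios conditional exact intervals and the clock index a delta-method interval, all at 95%. They cover counting error only. Ratios add 0.5 UMI. With 1 library a condition no test was made. Genes were named by a fixed rule: all members, other clock genes past 2-fold in endothelial-like cells and 5 fixed ones, up to 3 genes for each further list, and the 10 genes most like Dbp and Arntl. The members and lists were chosen with earlier results of these data known. Scripts used Python 3.11.15, scipy 1.17.1 and scanpy 1.11.5 and were tested on simulated data. Positions come from Gencode vM39 on GRCm39, the build of the files, and the annotation release differs from that of the authors.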

Additional observations from a re-analysis of the deposited data

Results flagged for a closer look

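Log2 ratios of 4 members in endothelial-like cells had counting intervals on opposite sides of 0 in different iPCKO and control pairs. The differences between pairs were not tested. Nr1d1 was at -0.20 in the Nodal cortex pair, against 0.89 in the Bdnf and 4.41 in the Hgf lung pair. Dbp was at -0.42 in the Nodal cortex pair, against 0.93 and 3.90. Per1 was at -0.38 in the Nodal cortex pair, against 0.54 and 1.22. Nfil3 was at 0.59 in the Bdnf lung pair, against -0.94 in the Hgf lung pair and -0.30 in the Nodal cortex pair. Tissue and age differ between the cortex and the lung pairs and cannot be told apart from the deleted gene.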

How the results depend on the processing

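Of 72 recomputed values of the index differences and counts of members past 2-fold in endothelial-like cells, 65 stayed within the counting interval (or 1.5 times, for counts) and 7 moved, and none of these changed direction. The index difference in the Hgf pair moved from 4.28 to 4.63 under a stricter gate. At a fold limit of 1.5 the members counted rose from 4 to 7 in the Bdnf pair and from 2 to 5 between the control lungs. Indices of other genes were chosen after seeing the data. Without Per1 the difference was 4.63 in the Hgf pair and -0.55 (-0.76 to -0.34) between the control lungs, which excludes 0, unlike -0.14 with Per1. With Dbp, Nr1d1 and Nr1d2 against Arntl and Npas2 it was 1.87 in the Bdnf and 5.89 in the Hgf pair. With Leiden clusters the control lungs differed by -0.20 (-0.37 to -0.02), also excluding 0. Of the recomputed ratios of single members, 792 stayed within the counting interval and 12 moved beyond it, 10 under the stricter gate and 2 with Leiden clusters, and none was reversed. Depth limits Npas2, Nfil3 and Per3 in the rarer types. No paired analysis was possible because each condition is 1 library.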
